A study of Mus musculus with 12 samples.

Results

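Open chromatin of wild-type naive CD4+ T cells was set against that of wild-type Th2 cells in mice. The assay was ATAC-seq: Tn5, a transposase, inserts adapters where DNA is accessible, and stretches with many insertions are called as peaks. Of the series' 12 libraries, 4 belong to this comparison and were taken by their labels: 2 naive libraries, which were technical replicates of 1 sample, and 2 Th2 libraries, each from a biological replicate of its own. Naive cells came from spleens of C57BL/6J mice and were enriched with negative selection beads. Th2 cells were such naive cells after 6 days on coated anti-CD3 with soluble anti-CD28, 50 ng/mL of IL-4 and an antibody against interferon gamma. Ages and sexes were not given in the sources used here, and neither group carried the deletion of an Ets1 super-enhancer that the knockout libraries of the series have. The libraries of wild-type Th1 cells and of knockout cells took no part in the calls and were used only to look up regions called without them.

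The peaks of the 4 lists on chromosomes 1 to 19 and X were merged into 90336 regions wherever they overlapped. A region was called naive only when both naive lists had a peak in it and neither Th2 list did, and Th2 only in the reverse case. Strength was read as the percentile of a peak's −log10 q-value (the peak caller's adjusted p-value) within its own list, with 100 for the strongest peak. No p-value was computed between the groups, since an exact permutation test of 2 against 2 libraries cannot give less than 1 in 3 and the naive pair shows technical spread only. The naive lists carry another code in their names than the Th2 lists do, so whatever goes with that code cannot be told apart from cell state.

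A naive CD4+ T cell is a resting cell that circulates through lymphoid organs, guided there by homing receptors such as CCR7 and kept quiet by factors such as TCF1, LEF1, FOXO1 and KLF2. Stimulation through the T cell receptor together with IL-4, which acts through STAT6, induces GATA3 and turns it into a Th2 cell. Th2 cells make IL-4, IL-5 and IL-13, whose genes lie side by side with Rad50, the home of their shared locus control region.

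At start sites, exclusive peaks lay at cytokine and receptor genes of both states, and 6 such promoters are shown for that reason. Each line gives the 250 bases before a start site, 5′ to 3′ from RefSeq (GRCm38.p6). Capitals mark matches, on either strand, to the searched motifs. These were TGANTCA for AP-1, AGATAA for GATA factors, ACCGGAA or CCGGAAGT for ETS factors, AACCACA for RUNX factors and CTTTGAT for TCF and LEF. TTTCCA stood for NFAT, GTAAACA for FOX factors, GGGCGGG for SP and KLF factors, and STAT sites were searched with a gap of 3 or 4 bases. The first 3 windows held a Th2-only region and the last 3 a naive-only region.
Il4 (chr11:53617339-53617588, minus strand): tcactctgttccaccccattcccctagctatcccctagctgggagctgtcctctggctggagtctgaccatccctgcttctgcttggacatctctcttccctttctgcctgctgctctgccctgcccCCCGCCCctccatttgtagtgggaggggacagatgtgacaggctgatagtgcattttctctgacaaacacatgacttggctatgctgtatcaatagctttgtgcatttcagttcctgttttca
Il9 (chr13:56482258-56482507, minus strand): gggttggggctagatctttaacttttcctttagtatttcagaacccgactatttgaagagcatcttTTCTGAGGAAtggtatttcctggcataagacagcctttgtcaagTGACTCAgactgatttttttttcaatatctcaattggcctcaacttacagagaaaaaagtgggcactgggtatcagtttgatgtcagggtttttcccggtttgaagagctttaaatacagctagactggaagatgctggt
Il21 (chr3:37232637-37232886, minus strand): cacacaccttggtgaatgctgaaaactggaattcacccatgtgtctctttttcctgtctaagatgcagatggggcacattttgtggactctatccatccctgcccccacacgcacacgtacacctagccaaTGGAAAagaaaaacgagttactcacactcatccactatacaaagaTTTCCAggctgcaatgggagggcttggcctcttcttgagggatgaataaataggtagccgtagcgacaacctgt
Il2 (chr3:37125955-37126204, minus strand): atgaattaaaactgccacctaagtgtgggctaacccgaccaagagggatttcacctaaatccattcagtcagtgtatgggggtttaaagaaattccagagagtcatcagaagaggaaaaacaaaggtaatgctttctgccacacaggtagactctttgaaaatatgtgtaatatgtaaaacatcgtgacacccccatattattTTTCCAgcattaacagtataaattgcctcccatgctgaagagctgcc
Cd3d (chr9:44981536-44981785, plus strand): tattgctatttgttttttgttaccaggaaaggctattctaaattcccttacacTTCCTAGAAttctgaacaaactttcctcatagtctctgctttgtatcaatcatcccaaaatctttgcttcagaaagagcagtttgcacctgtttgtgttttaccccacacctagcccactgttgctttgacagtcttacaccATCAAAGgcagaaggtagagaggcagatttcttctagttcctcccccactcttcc
Ifng (chr10:118440796-118441045, plus strand): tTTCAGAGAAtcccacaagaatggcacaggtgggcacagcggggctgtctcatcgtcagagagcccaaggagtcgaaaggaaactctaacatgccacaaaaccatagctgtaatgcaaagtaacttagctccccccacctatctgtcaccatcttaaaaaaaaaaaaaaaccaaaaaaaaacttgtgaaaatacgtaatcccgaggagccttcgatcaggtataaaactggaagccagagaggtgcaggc
The Il9 window held an AP-1 and a STAT match, the Il21 window 2 NFAT matches and the Il2 window 1 NFAT match 47 bases before the start. The Cd3d window held a TCF and LEF match and a STAT match, and the STAT match in the Ifng window lay outside the called region. The match in the Il4 window was to the SP and KLF letters. The Il4 window belongs to the inner of 2 listed starts. No list had a peak in the window of the outer start, 619 bases from the called region. Each match is a description of letters, not of binding.

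The 4 lists held 52571 and 56195 peaks in the naive libraries and 54160 and 51600 in the Th2 libraries. Median −log10 q-values were 8.20 and 9.78 in naive and 3.68 and 4.14 in Th2 lists, so peaks were called with more certainty in the naive libraries at a similar number. The number of reads is unknown, so where a peak is missing, it was not called, which does not show closed chromatin. Between the naive libraries 92.2% and 86.5% of peaks overlapped a peak of the other, between the Th2 libraries 79.6% and 83.0%, and across the groups 47.5% to 50.5%. The 8 T cell marker genes all had open regions within 20 kb in each group, with 76 and 86 in the naive and 53 and 49 in the Th2 libraries.

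Exclusive regions were about as many in each direction. Of 47438 regions open in both naive libraries, 20030 (42.2%) were naive only, and of 42307 open in both Th2 libraries, 18760 (44.3%) were Th2 only. These were 22.2% and 20.8% of all merged regions, and 21947 regions were open in all 4 libraries. In bulk chromatin a region open in few cells and one weakly open in many cannot be told apart.

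Exclusive regions lay mostly away from start sites. Only 4.18% of naive-only regions (811) and 3.72% of Th2-only regions (673) came within 1 kb of a listed start, against 37.4% of regions open in all 4 libraries (7965). Within protein-coding gene bodies were 58.8%, 57.9% and 71.8% of these classes. Median widths were 402 bp for naive-only, 482 bp for Th2-only and 732 bp for shared regions.

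The strength of exclusive regions differed between the directions. Naive-only regions had median percentiles of 40.4 and 44.8 in the naive lists, and Th2-only regions 56.7 and 54.4 in the Th2 lists. Regions were placed in bins of 10 points by the lower of their 2 percentiles. Among regions open in both naive libraries the naive-only share was 65.5% in the weakest bin and 16.1% in the strongest. Among regions open in both Th2 libraries the Th2-only share was 52.4% in the weakest and 38.6% in the strongest. Strong naive regions were therefore mostly called in Th2 cells too, while strong Th2 regions were more often without a naive peak.

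**Figure D1:**
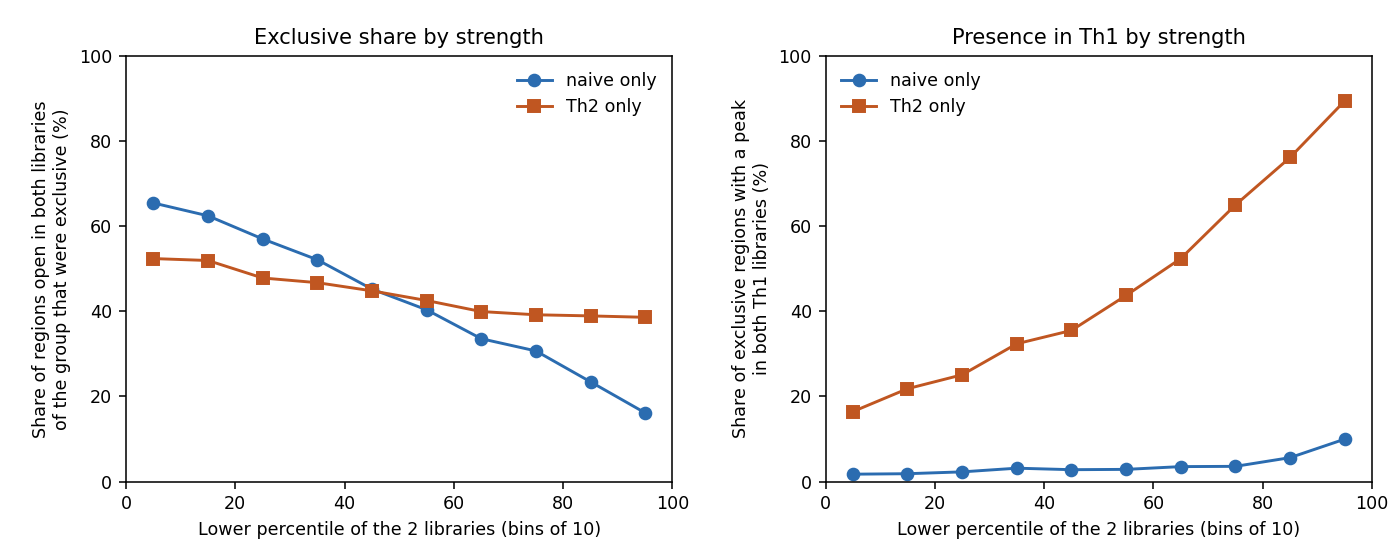
Left, the share of regions open in both libraries of a group that had no peak in the other group (y axis, %) by the lower percentile of the 2 libraries (x axis, bins of 10 points). Right, the share of naive-only and of Th2-only regions with a peak in both wild-type Th1 libraries. In the strongest bin 16.1% of naive and 38.6% of Th2 regions were exclusive, and 9.97% and 89.4% of those had a peak in both Th1 libraries.

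Genes of the Th2 cytokine list stood out by their Th2-only regions. Of 40 regions open in both Th2 libraries within 20 kb of these 12 genes, 29 (72.5%) were Th2 only, and all 12 genes had at least 1. Of 26 regions open in both naive libraries there, 10 (38.5%) were naive only. Genome-wide, 8962 of 21631 protein-coding genes (41.4%) had a Th2-only region and 9495 (43.9%) a naive-only region. These shares include genes without any region, since 17179 of the 21631 had one. Over the alternatives the Th2-only share of the list stayed between 66.7% and 75%, while its naive-only share moved between 23.1% and 57.7%.

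Windows of neighbouring genes overlap here, so a region can be counted at several of them, but only once in the list. At Rad50, 1 region was open in each naive library, against 11 and 9 in the Th2 libraries. Of the 11 regions within 20 kb of the gene 8 were Th2 only and none was naive only. Some of the 8 lie outside the Rad50 gene body, such as chr11:53636192-53636618 near Il13 and chr11:53719761-53720251 near Il5. Within the gene, the region at chr11:53650897-53651684 had percentiles of 74.1 and 84.0 in the Th2 lists, and that at chr11:53656773-53657163 had 53.1 and 87.6. The only region called in all 4 lists, at chr11:53706749-53707694, had 69.7 and 74.8 in naive and 70.7 and 63.7 in Th2 lists. So the stretch that was open in both states kept overlapping ranks, and the other regions stood apart from it by presence.

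The Il4 gene encodes the cytokine that both drives Th2 differentiation and is made by Th2 cells. It had 1 and 2 open regions in the naive and 7 and 5 in the Th2 libraries. The region over its inner start, at chr11:53617127-53618046, had percentiles of 79.0 and 48.9 in the Th2 lists and no naive peak. A region at chr11:53605225-53606279, on the far side of the gene, had 79.1 and 68.5 in the Th2 lists but 5.87 in the second naive list, so it was not called exclusive. Il4 had 3 Th2-only regions, and 5 when the second Th2 library was left out.

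Il13, the cytokine of mucus production and airway hyperreactivity, had 3 Th2-only regions (5 without the second Th2 library) and no naive-only regions. Without the first Th2 library, Il4 and Il13 had 1 naive-only region each. Il5, the growth and survival factor of eosinophils, had 4 Th2-only and 1 naive-only region (2 without the second Th2 library). A Th2-only region 788 bases before the Il5 start (from its middle, at chr11:53719761-53720251) had percentiles of 72.1 and 33.6. Th2-only regions were also counted at Il24 (6 against 2 naive only), Il10 (4 against 1) and Il9 (2 against none). Il3 and Csf2, neighbouring cytokine genes, had 2 naive-only and 1 Th2-only region each. Thus 9 genes of the list had more Th2-only regions, 2 had more naive-only regions and 1 had as many of each. Genome-wide 23.9% of protein-coding genes, those without a region included, had more Th2-only and 28.9% more naive-only regions.

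**Figure D2:**
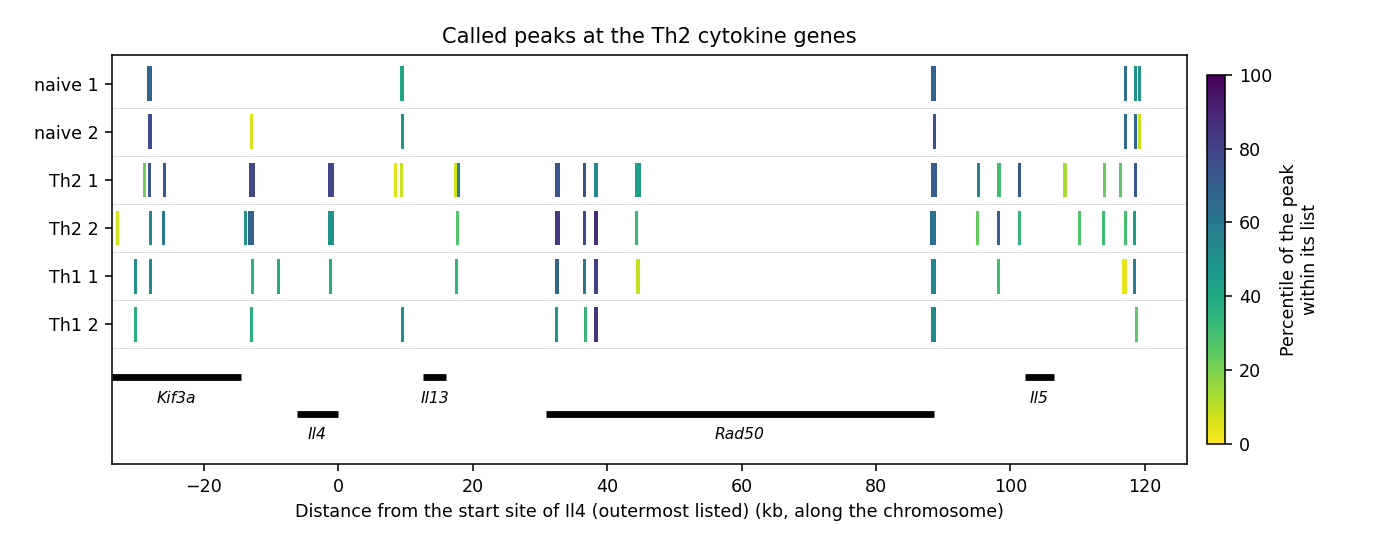
Called peaks of the naive, Th2 and wild-type Th1 libraries (rows) at the Th2 cytokine genes, by distance from the outer listed start of Il4 (x axis, kb). Each bar is a peak, coloured by its percentile within its list, and black bars are gene bodies. Within 20 kb of Rad50, 1 region was open in each naive library, against 11 and 9 in the Th2 libraries and 8 and 4 in the Th1 libraries.

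Receptors through which Th2 cells are steered and recruited had a Th2-only share above and a naive-only share near those over all regions. Of 87 regions open in both Th2 libraries at these 16 genes, 48 (55.2%) were Th2 only, and of 86 open in both naive libraries, 39 (45.3%) were naive only, against 44.3% and 42.2% over all regions. Th2-only regions outnumbered naive-only regions at 10 of the genes and the reverse held at 5. Over all protein-coding genes, those without a region included, these shares were 23.9% and 28.9%. The most Th2-only regions were at Il1rl1, which encodes the IL-33 receptor ST2 (9 against 4 naive only), and Il2ra, the IL-2 receptor alpha chain (8 against 6). Outside the Il1rl1 gene body, within the 20 kb window, the Th2-only region chr1:40393140-40393822 had percentiles of 80.7 and 94.9, and chr1:40412454-40413500, inside it, had 85.4 and 81.9. The window also reaches into the neighbouring gene Il18r1.

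Il4ra, the IL-4 receptor alpha chain, had 5 Th2-only and 2 naive-only regions, the latter 4 without the second naive library. Of the Th2-only ones, chr7:125539356-125539703 had percentiles of 93.8 and 83.8 and chr7:125543471-125543931 had 82.3 and 94.3, and both lie outside the gene body. With peaks of −log10 q of at least 2 alone, 3 Th2-only regions were counted. The region over the Il4ra start was open in all 4 libraries, at 59.9 and 55.3 in naive and 60.1 and 42.0 in Th2 lists, so the groups overlapped there. Il17rb, the IL-25 receptor, ran the other way with 5 naive-only regions and none Th2 only, as did Il2rb with 4 and none.

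Ccr8, a chemokine receptor of Th2 and regulatory T cells, had 5 naive-only regions and none Th2 only around it. At its start, however, a region open in all 4 libraries had percentiles of 21.1 and 27.1 in naive and 85.1 and 84.8 in Th2 lists. There both Th2 libraries lay far above both naive ones. The chemokine receptor Ccr3 and the decoy receptor Il1r2 had Th2-only regions within 1 kb of their starts, with percentiles of 69.8 and 60.2 at Ccr3 and 51.0 and 54.6 at Il1r2.

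Among transcription factors of the Th2 program, Pparg and Rbpj held the most Th2-only regions. Of 92 regions open in both Th2 libraries at these 14 genes, 44 (47.8%) were Th2 only, and of 69 open in both naive libraries, 17 (24.6%) were naive only. Over all regions these shares were 44.3% and 42.2%, so the list's Th2-only share was near that background and its naive-only share below it. Pparg, a nuclear receptor needed for ST2 expression in Th2 cells, had no open region in either naive library and 12 and 10 in the Th2 libraries. Of these 9 were Th2 only, one of them over a start site with percentiles of 42.3 and 55.9. Rbpj, the DNA-binding partner of Notch, had 10 Th2-only and 2 naive-only regions, and Epas1 and Irf4 had 5 Th2-only regions each.

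Gata3, the master factor of the Th2 lineage, did not follow that pattern within 20 kb of its gene body, and regions farther away were not counted. It had 6 and 7 open regions in the naive and 5 and 6 in the Th2 libraries, of which 4 were shared by all, 2 were naive only and 1 was Th2 only (2 without the first Th2 library). The region over its listed start, which lies inside the gene body, had percentiles of 56.4 and 44.2 in naive and 56.7 and 64.7 in Th2 lists. The largest gap among its shared regions was 7.83 points. Of the naive-only regions, chr2:9875811-9876348, had 79.9 and 86.7 in the naive lists. Stat6, which transmits the IL-4 signal, had 5 shared regions, 1 naive-only region and none Th2 only.

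Homing and survival genes of naive cells had more naive-only than Th2-only regions. Of 125 regions open in both naive libraries at these 14 genes, 71 (56.8%) were naive only, and of 69 open in both Th2 libraries, 23 (33.3%) were Th2 only, against 42.2% and 44.3% over all regions. At 11 of the 14 genes naive-only regions outnumbered Th2-only ones, and the reverse held at none. Genome-wide naive-only regions were more at 28.9% of protein-coding genes, those without a region included. Over the alternatives the naive-only share lay between 57.7% and 62.7% and the Th2-only share between 31.1% and 37.7%.

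Ccr7 had 12 and 15 open regions in the naive and 7 and 6 in the Th2 libraries, with 8 naive only and 2 Th2 only. Its naive-only region chr11:99162899-99163649, outside the gene body, had percentiles of 83.9 and 83.6. A shared region at chr11:99154882-99155502 had 97.0 and 95.3 in naive and 42.9 and 51.5 in Th2 lists, with no overlap.

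Tgfbr2, a TGF-beta receptor chain, had 14 naive-only and 4 Th2-only regions, Ifngr1 had 7 and none, and S1pr1, the receptor for lymph node exit, had 6 and 2. The IL-7 receptor gene Il7r had 2 of each.

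The transcription factors of quiescence showed the same tilt, with exceptions. Of 279 regions open in both naive libraries at these 18 genes, 153 (54.8%) were naive only, and of 177 open in both Th2 libraries, 66 (37.3%) were Th2 only, against 42.2% and 44.3% over all regions. Naive-only regions were in the majority at 15 genes and Th2-only regions at 2, Klf6 and Myb. Over all protein-coding genes, those without a region included, these shares were 28.9% and 23.9%. Foxp1, which keeps naive cells quiescent, had 37 naive-only and 14 Th2-only regions, the most naive-only regions of any protein-coding gene.

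Tcf7, which encodes TCF1, had 12 open regions in each naive library and 3 and 6 in the Th2 libraries. Of its 7 naive-only regions, 3 were strong: chr11:52265565-52266107 at 85.5 and 86.1, chr11:52268397-52268929 at 87.2 and 88.5, and chr11:52275357-52275887 at 85.3 and 86.4. Its single Th2-only region, chr11:52260847-52261346, had percentiles of 78.1 and 86.0. Without the first Th2 library 3 such regions were counted.

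Lef1 had 29 and 34 open regions in the naive and 15 and 14 in the Th2 libraries, with 18 naive only and 4 Th2 only. A shared region near its inner start, chr3:131157223-131157868, had 91.8 and 96.6 in naive and 18.4 and 21.8 in Th2 lists. In contrast the Th2-only region chr3:131168570-131169734 had 95.6 and 93.1 in the Th2 lists. A shared region at chr3:131139340-131140127 also ranked higher in Th2, at 87.0 and 94.5 against 35.5 and 37.8. The Lef1 gene thus held strong regions of both kinds within one gene body.

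Bach2, a repressor of effector programs, had nearly equal counts, with 47 and 48 open regions in the naive and 47 in each Th2 library. Of them 20 were naive only, 19 Th2 only and 17 shared by all. The Th2-only regions included chr4:32482805-32483412 at 98.6 and 97.0 and chr4:32501787-32502623 at 94.9 and 97.6. The shared region chr4:32560216-32561444 had 94.2 and 92.3 in naive and 8.31 and 5.86 in Th2 lists, one of the 10 largest gaps toward naive. Bach2 therefore had about as many regions exclusive to one state as to the other, beside the 17 shared ones. Exclusive regions were common everywhere, at 42.2% of naive and 44.3% of Th2 regions over the genome.

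**Figure D3:**
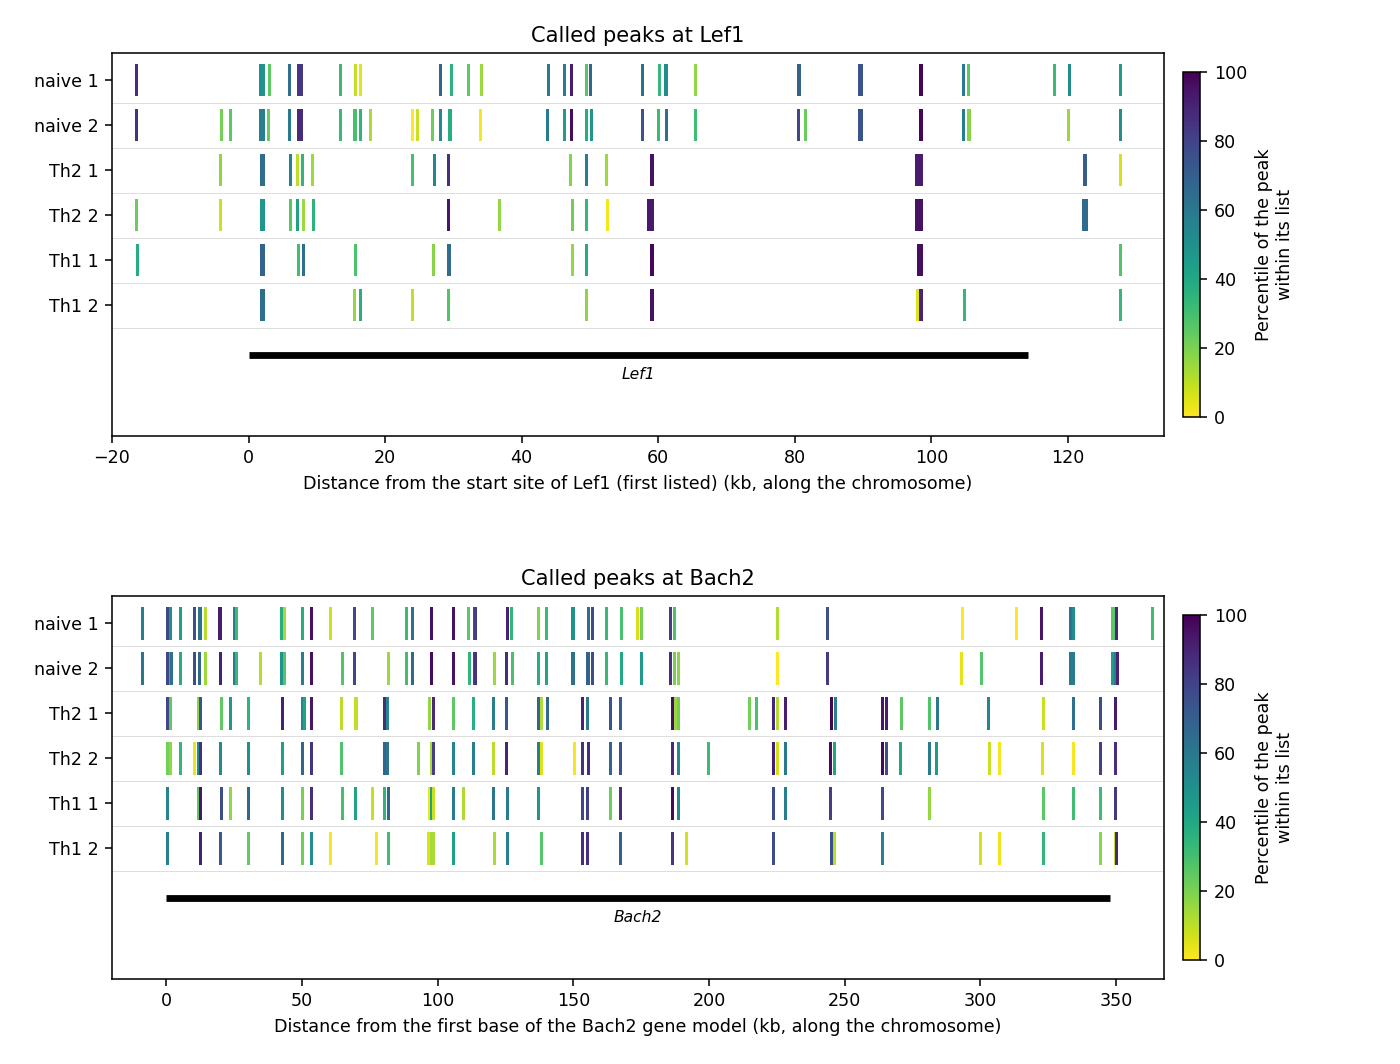
Called peaks of the naive, Th2 and wild-type Th1 libraries (rows) at Lef1 (top, by distance from its first listed start) and Bach2 (bottom, by distance from the first base of the gene), in kb. Each bar is a peak, coloured by its percentile within its list. Lef1 had 29 and 34 open regions in naive and 15 and 14 in Th2 libraries, and Bach2 had 47 and 48 in naive and 47 in each Th2 library.

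Ets1, whose super-enhancer the series' knockouts lack and which was intact in these libraries, had 30 and 28 open regions in naive and 18 and 17 in Th2 libraries. There were 15 naive-only, 6 Th2-only and 11 shared regions. The naive-only region chr9:32615837-32616339, outside the gene body, had percentiles of 95.1 and 96.0, and the Th2-only region chr9:32669355-32669886 had 96.3 and 93.3. A shared region at chr9:32661119-32662020 had 3.25 and 3.81 in naive and 85.1 and 72.9 in Th2 lists.

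Genes of T cell identity and receptor signalling were tilted toward naive as well. Of 279 regions open in both naive libraries at these 24 genes, 155 (55.6%) were naive only, and of 166 open in both Th2 libraries, 61 (36.7%) were Th2 only, again against 42.2% and 44.3%. At 20 of the genes naive-only regions were in the majority, and at 2, Lcp2 and Cbfb, Th2-only regions were. Genome-wide naive-only regions were more at 28.9% of protein-coding genes and Th2-only regions at 23.9%, those without a region included. Housekeeping genes leaned the same way, at 35.1% naive only and 20.4% Th2 only. Of these 15 genes 8 had more naive-only and 2 more Th2-only regions. Fyn, a kinase of the T cell receptor, had 20 naive-only and 8 Th2-only regions. Bcl11b, which fixes T cell commitment, had 11 and 1, with 17 naive only when the first naive library was left out, and 2 Th2 only without either Th2 library.

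At a listed start inside the gene body of Cd247, the zeta chain of the T cell receptor complex, a naive-only region (chr1:165788446-165788891) had percentiles of 88.0 and 84.9. Next to it, at chr1:165789276-165790362, a shared region had 34.0 and 39.8 in naive and 71.3 and 88.9 in Th2 lists. Lck, the kinase that starts receptor signalling, had a shared region over one of its starts at 85.1 and 85.9 in naive and 13.0 and 18.5 in Th2 lists. The start region of Cd5, which dampens that signal, had 88.5 and 83.1 in naive and 17.7 and 5.67 in Th2 lists. At Lck and Cd5 both naive libraries lay far above both Th2 libraries.

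Factors induced by activation split by member. At the 24 genes of the AP-1, NFAT, NF-kB and EGR families 34.8% of naive regions and 40.8% of Th2 regions were exclusive, an order that turned under 2 of 8 alternatives, and both shares lay below those over all regions. Batf3 had 7 Th2-only regions and none naive only, and Rel, an NF-kB subunit, had 6 and 2. Nfatc1 had 10 naive-only and 2 Th2-only regions. At the start of Atf3 a shared region had 2.92 and 17.1 in naive and 73.3 and 69.5 in Th2 lists, while at the start of Nr4a3 one had 84.6 and 83.6 in naive and 16.7 and 35.6 in Th2 lists.

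The Il2 gene, which encodes the main growth factor of T cells, had 3 regions. That over its start (chr3:37125635-37126675) was naive only, with percentiles of 54.7 and 49.3, and the other 2 were Th2 only. Its neighbour Il21 had Th2-only regions over and next to its start, of which chr3:37231055-37231718 had 50.2 and 80.5. At a listed start inside the gene body of Stat5b, which carries IL-2 signals, a naive-only region had percentiles of 85.1 and 78.9.

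Genes of other helper lineages were not uniformly without Th2 peaks. At the 9 Th17 genes 26 of 40 Th2 regions (65.0%) and 22 of 41 naive regions (53.7%) were exclusive. Il17f had no open region in either naive library and 5 in each Th2 library, all of them Th2 only, and the neighbouring Il17a had 2 further ones, both Th2 only. Th1 genes had 28 of 72 naive (38.9%) and 20 of 60 Th2 regions (33.3%) exclusive. Over all regions 42.2% of naive and 44.3% of Th2 regions were exclusive. Both shares of the Th17 list thus lay above these, and both of the Th1 list below. With windows of 5 kb the Th1 shares were 45.9% and 46.9%, above those over all regions, so their place depended on the window. Ifng had 3 naive-only and no Th2-only regions, and its start region had percentiles of 30.5 and 36.4 in naive and 68.9 and 52.0 in Th1 lists. Il12rb2, a chain of the IL-12 receptor, had 8 Th2-only and 4 naive-only regions.

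Regulatory T cell genes (43.6% of naive and 48.9% of Th2 regions exclusive) and follicular helper genes (42.3% and 47.4%) lay near the background. Members with unequal counts included Nrp1, a surface marker of regulatory T cells (7 naive only, 12 Th2 only), and Ikzf2, which encodes the factor Helios (9 and 1).

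Among costimulatory and inhibitory receptors 44.9% of naive and 40.4% of Th2 regions were exclusive, near the 42.2% and 44.3% over all regions. Single members are given only as counts. Icos, a costimulatory receptor of the CD28 family, had 6 naive-only regions and 1 Th2-only region, while Cd200 had 1 and 5. Cd44, a receptor that marks activated T cells, had 8 and 7. Among genes of cytokine signalling and survival 35.8% and 35.0% were exclusive, an order kept in 5 of 8 alternatives. Jak1, a kinase of many cytokine receptors, had 12 naive-only and 7 Th2-only regions, and Cish, a feedback inhibitor of cytokine signals, had none and 4. Cdk6, a kinase of the entry into the cell cycle, had 12 and 13 open regions in the naive and 18 and 24 in the Th2 libraries, with 5 naive only and 9 Th2 only.

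Cell cycle genes (29.9% and 23.4%), genes of glycolysis and growth (28.1% and 29.3%) and housekeeping genes (35.1% and 20.4%) had fewer exclusive regions in each state than all regions had. Cell cycle and housekeeping genes thus leaned toward naive, and kept that order in 8 of 8 alternatives. The Th2-only counts of these last 3 lists moved with single libraries. Cell cycle genes had 18, and 32 or 29 without the first or second Th2 library. Growth genes had 24, and 39 without the second, and housekeeping genes 11, and 18 without the first. For regulatory T cell genes 24 naive-only regions became 37 without the first naive library.

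**Figure D4:**
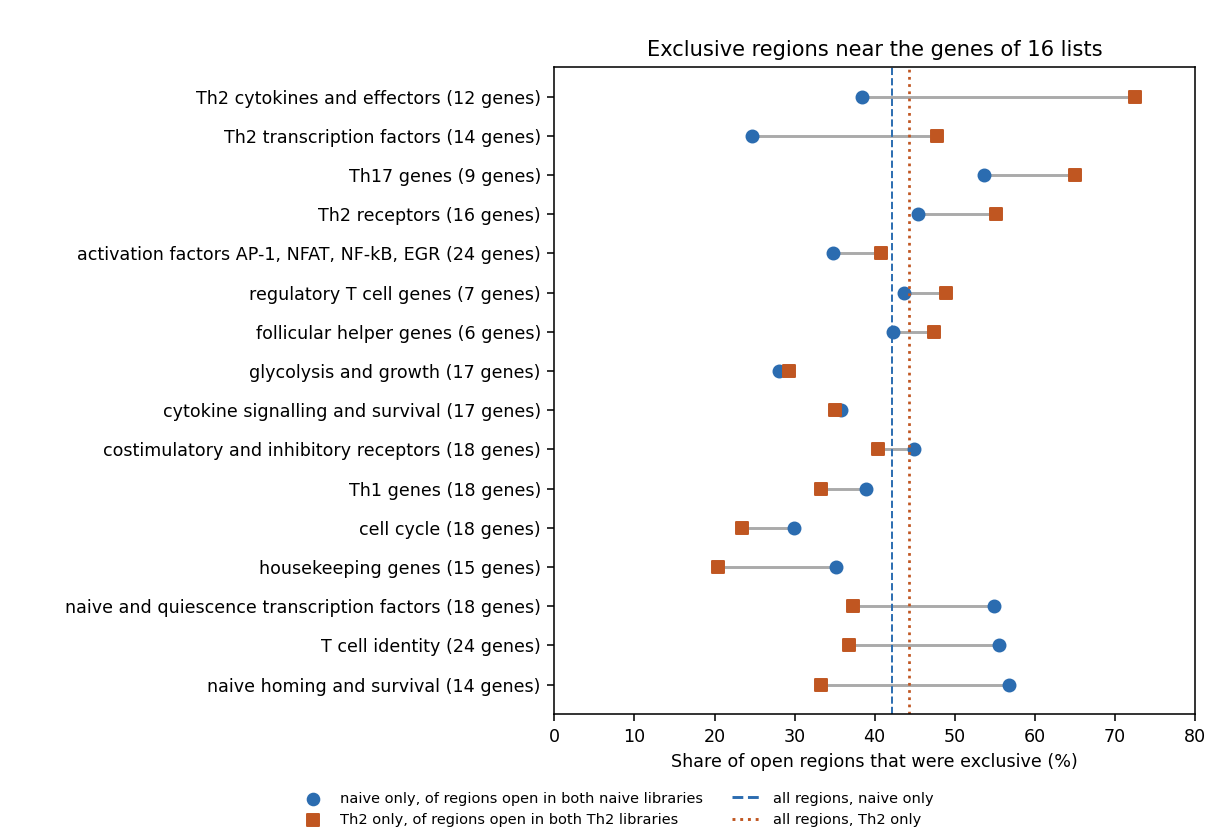
Share of open regions within 20 kb of the genes of 16 lists that were exclusive (x axis, %): circles, naive only among regions open in both naive libraries, and squares, Th2 only among regions open in both Th2 libraries. Dashed and dotted lines are the shares over all regions, 42.2% and 44.3%, and lists are ordered by the difference. The Th2 cytokine genes (72.5% Th2 only) and the naive homing genes (56.8% naive only) are at the ends.

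By the count over the whole genome, which favours long genes, Foxp1 led the naive-only side. It was followed by Sgms1 with 28 regions, Wwox with 27, Ripor2 and Prkce with 22 each, Itpr2, St8sia1, Tgfbr3 and Sox5 with 21 each, and Fyn with 20. Inpp4b, a phosphoinositide phosphatase, led the Th2-only side with 33, before Sox5 with 27, Arhgap15 and Lpp with 26 each, Fhit with 23, Sugct with 22, and Zbtb20, Elmo1, Celf2 and Itpr1 with 21 each. Sox5 stood in the first 10 of both directions.

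The strongest naive-only region was chr19:14695231-14695927, in no protein-coding gene body and 97.4 kb from the nearest listed start, that of Tle4, a corepressor. Among the 10 strongest were chr5:72752553-72753122 over the start of Txk, a Tec family kinase of T cells, and chr1:94091666-94092234, 39.4 kb from the start of Pdcd1, the gene of PD-1. Fold enrichments at the Pdcd1 region were 14.8 and 15.8 in the naive lists. Of these 10 regions 4 had a peak in both wild-type Th1 libraries, 3 in 1 of them and 3 in none. Among naive-only regions of the strongest bin 9.97% had one in both and 77.5% in none.

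The 10 strongest Th2-only regions had percentiles that round to 99.9 or more in both Th2 lists. All 10 had a peak in both Th1 libraries too, as had 89.4% of Th2-only regions in the strongest bin. Among the 10 were chr9:79772148-79772731 in Tmem30a, with fold enrichments of 9.52 and 9.68, chr13:117143625-117144349, 76.6 kb from the start of Emb, and chr3:93571962-93572752, 51.9 kb from that of S100a11. None of the 10 lay in or nearest to a gene of the Th2 lists.

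Regions open in all 4 libraries also differed in rank. In 2461 of 21947 (11.2%) both naive libraries lay at least 25 points above both Th2 libraries, and in 1270 (5.79%) the reverse held. With any gap, the groups did not overlap in 9853 regions (44.9%) with naive higher and in 5231 (23.8%) with Th2 higher. When ranks were taken over the shared regions alone, 2110 and 1998 passed the 25 points, so the excess toward naive was nearly gone. With ranks by fold enrichment over whole lists 2811 and 1098 passed. Without the first or second Th2 library 5353 or 5211 regions ranked higher in naive. Those higher in Th2 were 2048 or 1985 without the first or second naive library and 2014 without the second Th2 library.

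The largest gap toward Th2 was 94.9 points, at chr13:107856914-107857569 within Zswim6, with percentiles of 1.21 and 4.61 in naive and 99.5 and 99.7 in Th2 lists. Next came a region within Hdac4, a histone deacetylase, at 3.91 and 5.24 against 98.1 and 98.3. One within Peli1, a ubiquitin ligase that restrains T cell activation, had 7.08 and 8.03 against 94.4 and 94.9. All 10 regions with the largest gaps toward Th2 had peaks in both Th1 libraries, as had 78.7% of all regions open in the 4 libraries.

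The largest gap toward naive was 92.4 points, at chr4:44022211-44022997 within Clta, with 98.7 and 98.5 in naive and 3.40 and 6.13 in Th2 lists. A region 3.67 kb from the start of Ccl1, the ligand of CCR8, had 92.6 and 91.6 in naive and 8.74 and 6.38 in Th2 lists. Of the 10 largest gaps toward naive, 5 had peaks in both Th1 libraries and 4 in none. Among all regions open in the 4 libraries these shares were 78.7% and 7.44%.

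**Figure D5:**
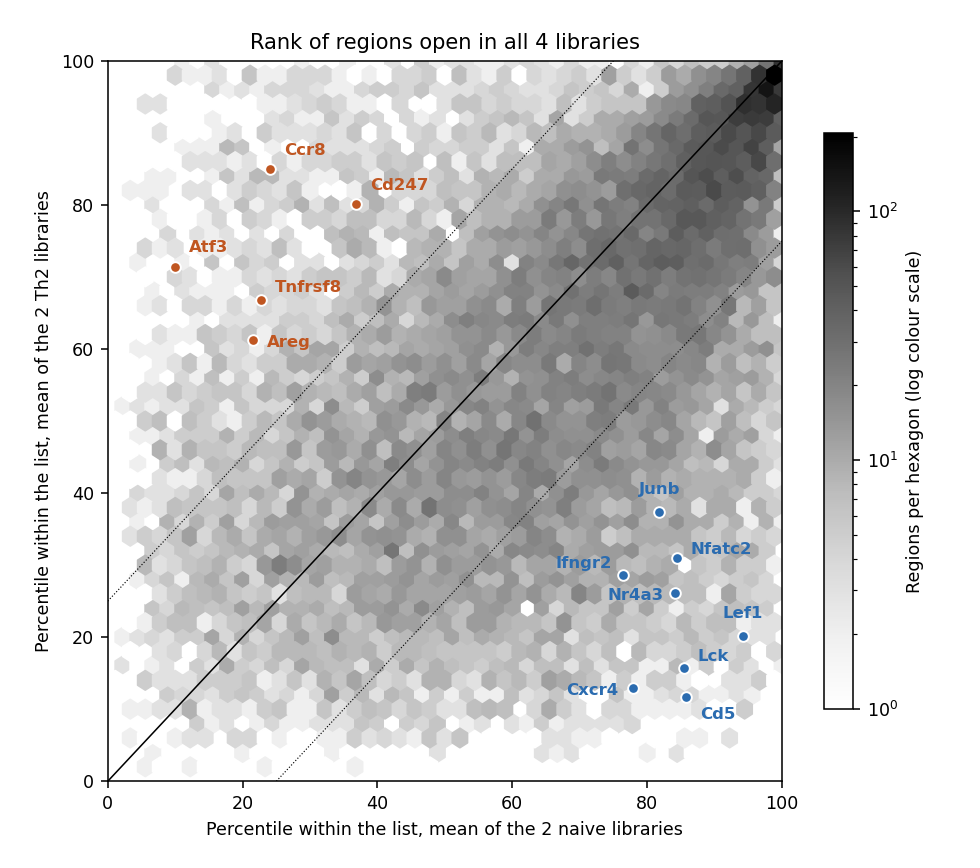
Percentile within the list of the 21947 regions open in all 4 libraries, as the mean of the 2 naive (x axis) and of the 2 Th2 libraries (y axis), with grey for the number of regions on a log scale. Coloured points are start regions of chosen listed genes whose groups differed by at least 25 points, and not all such genes are shown. Dotted lines mark a difference of 25 points between the means. Ccr8 and Atf3 sit above the lines, and Lck, Cd5 and Lef1 below.

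At the starts of listed genes shared regions were the rule. Of 189 listed genes with a start in the table, 170 had a region within 1 kb, 136 of them a shared one. Naive-only regions lay at 28 genes and Th2-only regions at 17. These were 31 and 18 regions, beside 151 shared ones. Over all listed starts 811 naive-only, 673 Th2-only and 7965 shared regions came within 1 kb. Of the 151 shared start regions 14 ranked higher in naive by the 25 points and 5 higher in Th2. Over all 21947 shared regions 11.2% and 5.79% did, so the listed genes did not stand out by these counts. The calls use ranks over whole lists, and over all shared regions the excess toward naive was nearly gone when ranks were taken among shared regions, as given above. On the naive side were Nfatc2 (86.9 and 82.0 against 35.8 and 26.2) and Ifngr2, an interferon gamma receptor chain (75.7 and 77.2 against 28.3 and 28.8). Beside the start of the homing receptor Cxcr4 a region had 80.5 and 75.5 against 12.8 and 13.1, while that over the start itself had 79.5 and 71.1 against 81.2 and 60.6, with overlap. On the Th2 side were Tnfrsf8, the gene of CD30 (22.2 and 23.4 against 60.8 and 72.9), and Areg, an epidermal growth factor receptor ligand made by Th2 cells (28.5 and 14.6 against 67.4 and 55.1).

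The letters of promoter windows differed between the classes. Windows of 300 bases, from 250 before to 50 after each listed start, were searched on both strands, and windows of neighbouring starts of a gene overlap. The AP-1 letters TGANTCA stood in 15.4% of 369 windows with a Th2-only region, 6.73% of 327 with a naive-only region, 4.03% of 9252 with a shared region and 7.04% of all 21045. The TCF and LEF letters CTTTGAT stood in 5.20% of naive-only and 1.63% of Th2-only windows, against 3.25% of all. The GATA letters AGATAA stood in 14.7% of naive-only, 7.32% of Th2-only and 9.68% of all windows. In the 10086 windows without any region these shares were 9.59% for AP-1, 4.17% for TCF and LEF and 14% for GATA, so the naive-only shares of GATA and of TCF and LEF were near those of promoters without a peak. Naive-only windows had a median of 53.7% G and C and Th2-only windows 62.3%, and the part of this base composition in the motif shares was not tested. Of the promoters printed above, that of Il9 holds the AP-1 letters, 140 bases before the start, and that of Cd3d the TCF and LEF letters on the other strand.

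Libraries that took no part in the calls were then looked up. Of the naive-only regions 35.2% (7043) and of the Th2-only regions 79.1% (14833) had the same presence in the naive and Th2 knockout libraries. Only 91 and 12 regions showed the opposite presence there. The knockout naive lists were shorter, and cut to equal lengths the shares were 48.6% and 74.4%. The share also moved with strength: of naive-only regions it was 12% in the weakest and 90.7% in the strongest bin, and of Th2-only regions 46.1% and 96.5%.

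Both naive knockout lists lacked peaks at all 4 Y-linked genes checked, which all 4 wild-type libraries had, and the part of this in the shares was not tested. The Th2 knockout libraries were taken by their source name, against a title that says Th1. Knockout and wild type also differ by the deletion itself.

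In wild-type Th1 cells, which had been stimulated for the same 6 days with IL-12 and IL-2 in place of IL-4 and the antibody, many Th2-only regions were open too. Of Th2-only regions 43.0% (8060) had a peak in both Th1 libraries, 22.8% (4268) in 1 and 34.3% (6432) in none. Of naive-only regions 3.05% (611) had a peak in both and 88.7% (17758) in none. The Th1 share of Th2-only regions was 16.4% in the weakest bin and 89.4% in the strongest. The Th1 lists were shorter, with 44223 and 34746 peaks, so a region without a Th1 peak there may have missed the call.

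By gene, 5 of the 9 Th2-only regions at Pparg and 3 of the 4 at Il5 had a peak in neither Th1 library, and the same held for both Il9 regions. At Rad50 3 of 8 had a peak in both Th1 libraries and 2 in none, and at Il24 4 of 6 had one in both. In the Th2 cytokine list as a whole 12 of 29 had a peak in both Th1 libraries and 11 in none. These counts were near the shares over all Th2-only regions, 43.0% and 34.3%. In the AP-1, NFAT, NF-kB and EGR list 33 of 58 had one in both and 14 in none. All 10 naive-only regions of the cytokine list were without a Th1 peak, as were 88.7% of all naive-only regions.

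Markers of other spleen cells were counted in the same way. Over the B cell markers 34 and 30 regions were open in naive and 36 and 39 in Th2 libraries, with 13 of 27 naive (48.1%) and 15 of 28 Th2 regions (53.6%) exclusive, 11 of the 15 at Ebf1. Over the myeloid markers 35 and 39 regions were open in naive and 28 and 24 in Th2 libraries, with 46.9% and 31.8% exclusive. Over the CD8 and NK markers there were 30 and 28 against 25 and 17, with 46.2% and 31.2% exclusive, and over the erythroid markers 12 and 12 against 12 and 10. Ms4a1, Csf1r, Lyz2 and Ncr1 had no region in any of the 4 lists. Exclusive regions lay at starts of markers in both directions. Naive-only regions had percentiles of 81.4 and 83.2 at Gzma and 63.5 and 66.2 at Itgam. Th2-only regions had 39.0 and 59.1 at Klre1 (at starts inside its gene body), 50.8 and 59.0 at Itgax and 27.6 and 8.19 at Cebpa. At the start of Prf1, a gene of the Th1 list and not of the marker lists, a naive-only region had 78.1 and 79.8. The part of other cells in the results was not tested.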

How the data were processed

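Peak lists of 2 naive and 2 Th2 wild-type libraries were analysed. Each list, as deposited, gives per peak a score, a fold enrichment (a ratio), and the −log10 of a p-value and of a q-value, all made by the authors' peak caller. Alignment with BWA, duplicate handling with Picard and broad peak calling with MACS2 on GRCm38 are named in the submitters' processing notes. Tool versions were not given in the sources used here. Peaks were called per library, not on pooled samples, so replicates could be compared by presence and rank. The lists hold no read counts, so depth is unknown, no interval could be given, and a library with more reads or less background yields more certain peaks. The score and the p-value column were not used in any result.

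Peaks of the 4 lists on chromosomes 1 to 19 and X were merged when they shared at least 1 base. A region took the highest −log10 q of its peaks, as a percentile within that list. Regions in all 4 lists whose closest libraries of the 2 groups lay at least 25 points apart were called ranked higher in one. Gene regions reach 20 kb beyond the gene body. Start sites and promoter sequences came from RefSeq tables that cover 17274 of 21631 protein-coding genes, so a nearest start is the nearest listed one. All 280 listed genes were matched by symbol.

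Genes were named by rule: per list the 4 with the most exclusive regions, per direction the 10 with the most genome-wide, the 10 strongest or most shifted regions, and the lineage genes. Others, including single regions and start sites, were chosen after their values were seen. The members and lists were chosen with earlier results of these data known. The naive libraries are technical replicates, so their spread is technical. Samples were grouped by source name, strain and title. Alternatives varied list length, q-value minimum, cover, gene and start windows, gap, ranking and the libraries used. The scripts ran in Python 3.11.15 with matplotlib 3.10.9 for plots, scipy 1.17.1, pandas 2.3.3 and numpy 2.4.6. The result for 1 gene of the naive homing list is not reported here.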

Additional observations from a re-analysis of the deposited data

Results flagged for a closer look

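Peaks outside the compared chromosomes were seen in all 4 libraries. The Y chromosome held 22 and 20 peaks in the naive lists and 17 and 16 in the Th2 lists, and mitochondrial DNA held 4 peaks in each of the 4 lists. They entered no comparison.

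A total of 91 regions were naive only in wild type and Th2 only in the knockout libraries, and 12 were Th2 only in wild type and naive only in the knockout. Every library of one genotype thus had the reverse presence of the other, and this difference was not tested. The regions were weak: the lower of the wild-type percentiles had a median of 21.3 and a highest value of 52.4 in the first set, and 12.8 and 32.1 in the second.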

How the results depend on the processing

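The counts of exclusive regions stayed within 1.5 times of the values reported under every alternative run, between 18922 and 25824 for naive only and between 15856 and 26375 for Th2 only. Regions ranked higher in naive were 1346 when peaks had to cover 50% of the region, 5514 with a gap of 10 points, and 2715 to 5353 when 1 library was left out. Those ranked higher in Th2 were 588, 2802 and 1868 to 2048, and 1998 with ranks over regions open in all 4 lists. Within 250 bases of a start lay 1.77% of naive-only and 2.06% of Th2-only regions, and without 1 library 4.47% to 5.38% and 4.11% to 5.24% lay within 1 kb. The same presence in the knockout was found for 48.6% and 74.4% with lists of equal length, and for 29.1% to 33.1% and 62.6% to 77.9% without 1 library. The cause of these shifts was not tested. Leaving out libraries for the start and knockout shares was chosen after seeing the data. With −log10 q of at least 2, 94.1% of naive-only and 83.3% of Th2-only regions kept their call. Of 198 listed genes with more exclusive regions of one kind, 144 to 196 kept that direction over the alternatives and at most 10 turned, with 5 kb windows. The order of the naive-only and the Th2-only share was kept in 5 of 8 alternatives over all regions, in 4 for regulatory T cell genes, 5 for follicular helper and for cytokine signalling genes, 6 for activation and for glycolysis genes, 7 for costimulatory and for Th1 genes, and 8 for the other 9 lists. No paired analysis was possible because the naive libraries are technical replicates of 1 sample, the Th2 libraries are separate biological replicates, and the results come from no test. The number of reads behind the peaks is unknown, which limits every statement on absence.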
